A study of Mus musculus with 17 samples.

Results

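Collagen chains are modified and folded inside the cell and joined to each other outside it, and 10 genes of that work are described here in mouse heart. They are the prolyl 4-hydroxylase subunits P4ha1, P4ha2 and P4ha3, the lysyl hydroxylases Plod1 and Plod2, the chaperone Serpinh1, and the lysyl oxidases Lox, Loxl1, Loxl2 and Loxl3. The genes were taken by name from the gene tables, where each symbol matched 1 of 41126 gene IDs. All 10 were counted in every library, and all 10 were among the 15931 genes that passed the filter on low counts.

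The study measured RNA in hearts of C57BL/6 mice by RNA-seq, in 17 libraries harvested at about zeitgeber hour 10, the number of hours after lights on. The TAC 1 week SR9009 group (n = 4) and the TAC 1 week vehicle group (n = 4) were taken 1 week after transverse aortic constriction (TAC), surgery that narrows the aorta so that the heart pumps against a higher pressure. The TAC 6 week SR9009 group (n = 3) and the TAC 6 week vehicle group (n = 3) were taken 6 weeks after it. SR9009, a synthetic agonist of the clock repressors REV-ERB alpha and beta, or its vehicle was given each day. Control (n = 3) is labelled only by that word, so whether these mice were operated on or dosed, and for how long they were kept, is not stated. No mutant allele or transgene is named for any group, and neither sex nor age is given. Nothing in the labels says that replicates came from separate animals, so p-values here measure the spread between libraries, which may be technical. Differences from Control or between times therefore cannot be told apart from differences in age or length of dosing.

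Fibrillar collagen is made as procollagen chains in the endoplasmic reticulum. Prolyl 4-hydroxylase and lysyl hydroxylase use iron, 2-oxoglutarate and ascorbate to add hydroxyl groups, which steady the triple helix and prepare lysines for sugar attachment and cross-links, and SERPINH1 (HSP47) binds the folded helix until it leaves for the Golgi. After secretion, lysyl oxidases oxidise lysine side chains of collagen and elastin, and the aldehydes formed react into the cross-links that make a scar stiff. In the heart this machinery is known mainly from fibroblasts, and its products build up in pressure overload.

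Between 8.683 and 15.81 M fragments (M for mega) were counted per library, and each TAC 1 week SR9009 and TAC 6 week vehicle library was deeper than every Control library (at most 10.14 M). The cardiomyocyte markers, which define the labelled tissue, summed to 33845 to 48314 CPM (fragments per 1 M, after TMM scaling of library sizes) in every library. The activated fibroblast markers (6 genes, Postn and Cthrc1 among them) summed to 464.4 to 2407 CPM in TAC 1 week SR9009, 384.6 to 1184 in TAC 1 week vehicle, 334.3 to 422.1 in TAC 6 week SR9009 and 530.9 to 1220 in TAC 6 week vehicle, against 170.3 to 203.9 in Control. The resting fibroblast markers (7 genes, Pdgfra and Dcn among them) had a narrower range, with 1177 to 1709 CPM over the TAC libraries, against 1053 to 1131 in Control. All values are from whole heart, so more cells of a type and more RNA per cell cannot be told apart. In an earlier look at these data the libraries TAC 1 week SR9009 2, TAC 6 week vehicle 1 and Control 2 stood apart, and the results that rest on them are given with and without them.

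Levels between genes were compared as CPM per kilobase of exon. Serpinh1 stood first and P4ha3 last in all 5 groups, with P4ha1 and Plod1 next after Serpinh1. The order between them depended on the measure. By the authors' FPKM, a level scaled for length by their own tool, P4ha2 stood above P4ha1 in each group mean. In Control mean FPKM was 44.0 for P4ha2, 40.4 for Plod1 and 18.4 for P4ha1, so the places below Serpinh1 hold for CPM per kb only. In Control, Serpinh1 had 98.1 ± 5.43 CPM per kb (SD, n = 3), P4ha1 20.0 ± 0.998 and Plod1 19.3 ± 0.463, and P4ha1 and Plod1 did not differ beyond their spread. Lower in Control came Plod2 (10.7 ± 0.303), P4ha2 (8.53 ± 0.511) and Loxl1 (8.16 ± 0.646), of which P4ha2 and Loxl1 overlapped within 1 SD. Loxl2 (5.28 ± 0.427), Loxl3 (1.95 ± 0.207) and Lox (1.43 ± 0.334) closed the list above P4ha3 (0.285 ± 0.165). The lysyl oxidases moved up the order in TAC 1 week vehicle, where Loxl1 (15.9 ± 3.25) and Loxl2 (12.9 ± 3.96) stood above Plod2 (11.3 ± 1.47) and Lox (6.06 ± 2.68) stood above Loxl3 (3.14 ± 0.807), though Loxl2 and Plod2 overlapped within 1 SD.

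**Figure D1:**
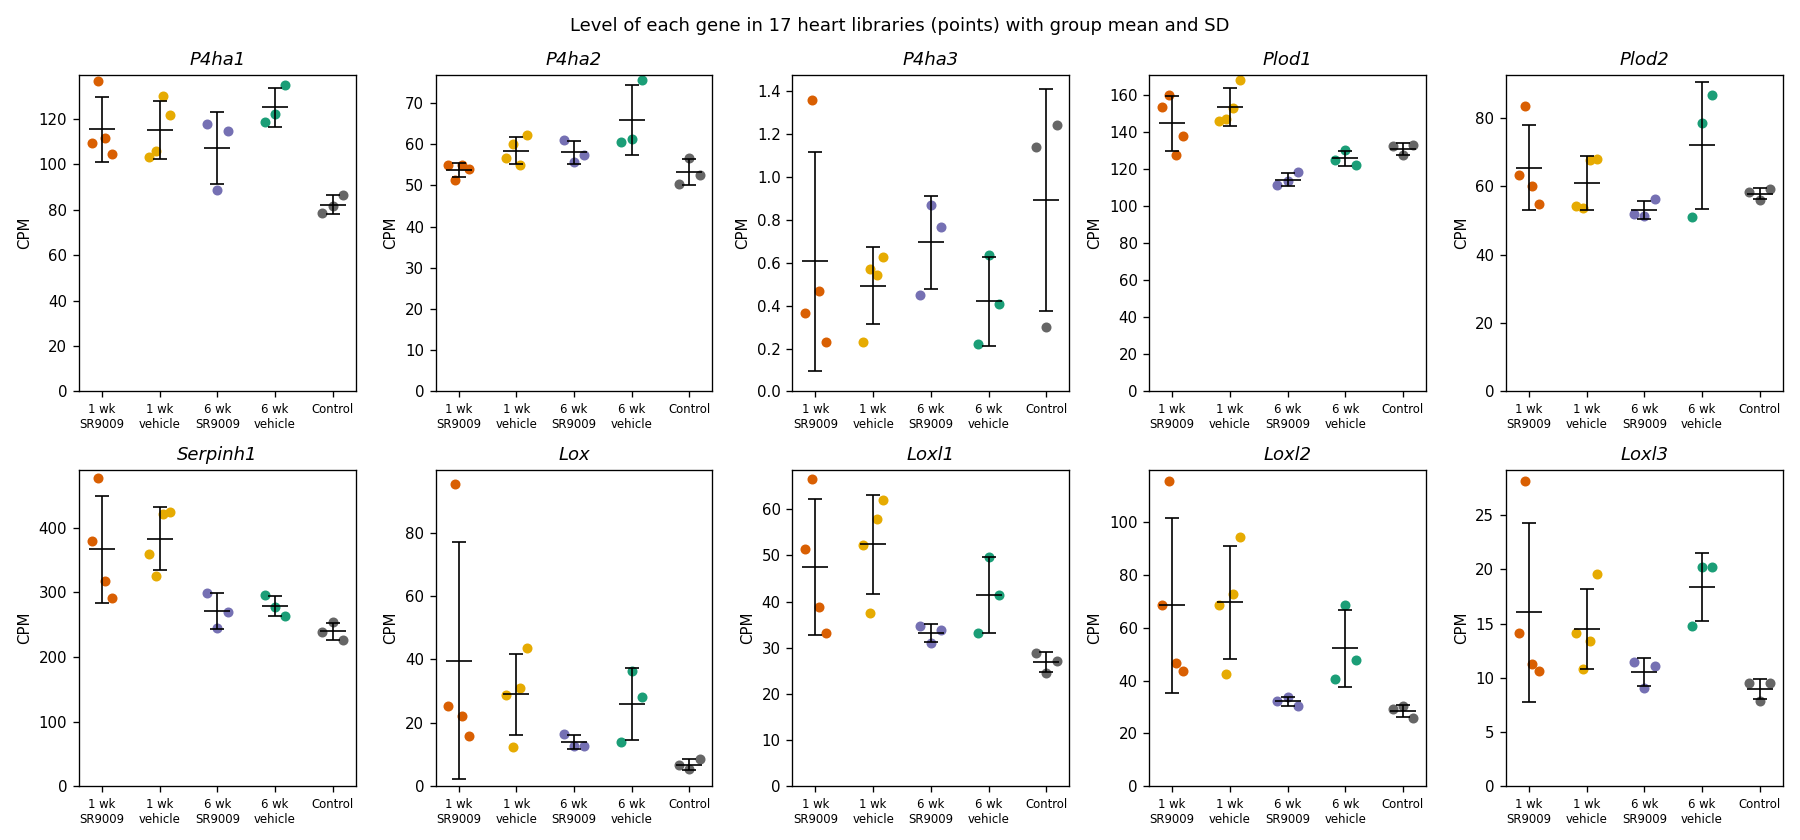
Level of each of the 10 genes in CPM (vertical axes, from 0) in each of the 17 libraries (points) by group, with the group mean and SD (bars). Lox, Loxl1, Loxl2, Loxl3, P4ha1 and Serpinh1 were higher in every 1-week TAC library than in any Control library, while P4ha3 reached at most 1.36 CPM. The share of all genes with such a separation from Control was not counted.

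Promoters of 5 of the genes were found in a RefSeq table of the GRCm38.p6 build, those of P4ha1, P4ha2, P4ha3, Plod1 and Serpinh1. The 250 bases upstream of the start are shown for the 3 of them whose RNA rose 1 week after TAC with vehicle, 5′ to 3′ on the gene's own strand, with ACGTG and GCGTG on either strand in capitals, the core letters bound by hypoxia-inducible factors, which are known to act on P4HA and PLOD genes. The windows are chr10:59323046-59323295 (plus strand) for P4ha1, chr4:147936777-147937026 (minus strand) for Plod1 and chr7:99353240-99353489 (minus strand) for Serpinh1.
P4ha1: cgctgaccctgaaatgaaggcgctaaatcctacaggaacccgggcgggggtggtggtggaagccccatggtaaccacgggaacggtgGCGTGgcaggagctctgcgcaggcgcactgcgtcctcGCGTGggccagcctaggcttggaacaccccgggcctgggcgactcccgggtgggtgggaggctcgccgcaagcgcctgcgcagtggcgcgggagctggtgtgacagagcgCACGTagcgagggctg
Plod1: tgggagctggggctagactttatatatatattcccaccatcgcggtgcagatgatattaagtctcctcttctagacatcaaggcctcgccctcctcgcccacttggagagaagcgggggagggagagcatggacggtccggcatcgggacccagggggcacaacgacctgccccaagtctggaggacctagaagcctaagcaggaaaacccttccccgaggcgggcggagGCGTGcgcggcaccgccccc
Serpinh1: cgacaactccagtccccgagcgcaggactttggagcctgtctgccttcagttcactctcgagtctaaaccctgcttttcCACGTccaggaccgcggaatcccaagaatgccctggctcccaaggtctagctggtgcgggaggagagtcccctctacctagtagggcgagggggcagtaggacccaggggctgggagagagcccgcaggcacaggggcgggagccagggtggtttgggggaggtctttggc

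P4ha1 held 1 ACGTG, 16 bases before the start, and 2 GCGTG. Plod1 held 1 GCGTG, 20 bases before the start, and Serpinh1 held 1 ACGTG, 171 bases before it. The P4ha2 window held 1 ACGTG and 2 GCGTG, and the P4ha3 window neither. Of all 27025 promoters in the table, 16.6% held ACGTG, 28.2% held GCGTG and 38.6% held at least 1 of them, so 4 of 5 windows carried letters that are common in promoters. The other motifs searched on both strands were GGGCGG (in 32.9% of promoters and in all 5 windows), CAGACA (17.1%, in Serpinh1 only), and AGGTCA (13.8%), GGAATG (12.6%), CCAAT (34.5%) and the heat shock letters GAANNTTC (6.78%), which were in none of the 5. A match describes these letters and no more.

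The question of the first comparison was what pressure overload without the drug does to these genes early on. At 1 week after TAC with vehicle, 6 of the 10 genes were higher than in Control and none was lower, by edgeR's quasi-likelihood test with Benjamini-Hochberg adjustment over all genes tested, while 8.91% of all genes were called higher. The 6 were Lox, Loxl1, Loxl2, Serpinh1, P4ha1 and Plod1, so each class of enzyme and the chaperone had a member among them. The largest log2 fold change was that of Lox and the smallest that of Plod1. The median log2 fold change of the 10 genes was 0.58, beside -0.0 over all genes tested. Activated fibroblast markers rose in the same libraries (3 of 6 passed, Postn by 3.13 ± 0.60 on the log2 scale, SE, edgeR adjusted p 0.00369). Dividing-cell markers rose too (6 of 6 passed, median log2 fold change 2.92), with a summed level of 151.1 to 457.2 CPM in TAC 1 week vehicle, against 36.0 to 44.1 in Control. Of 8 macrophage markers 7 rose (median 0.88), with sums of 415.8 to 496.9 CPM in TAC 1 week vehicle, against 288.1 to 309.9 in Control. The part of these markers in the result was not tested.

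At 6 weeks after TAC with vehicle, 4 of the 10 genes were higher than in Control (Lox, Loxl3, P4ha1 and P4ha2) and none was lower, where 10.7% of all genes were called higher. The median log2 fold change of the 10 was 0.46, beside -0.01 over all genes. Lox and P4ha1 passed at both times. With the library total as a covariate all 4 calls of TAC 6 week vehicle were lost (edgeR adjusted p 0.318 to 0.664), and depth and group cannot be told apart there. The share of all genes called there in either direction went from 20.7% to 1.48%. With SR9009, 5 genes were higher 1 week after TAC (Lox, Loxl1, Loxl2, P4ha1 and Serpinh1), where 11.4% of all genes were called higher. All 5 were likewise lost with the library total as a covariate (0.128 to 0.186), and depth and group cannot be told apart here either. Over all genes the share called in either direction went from 19.9% to 1.47%. In TAC 6 week SR9009 none of the 10 passed against Control, where 2.59% of all genes were called higher, 2 of the 10 and 3061 of all 15931 genes had an unadjusted p under 0.05, and DESeq2 called 1 (P4ha1). All 4 of these comparisons share the same 3 Control libraries. Sets of calls that differ between SR9009 and vehicle are no test of a drug effect, which is given below.

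**Figure D2:**
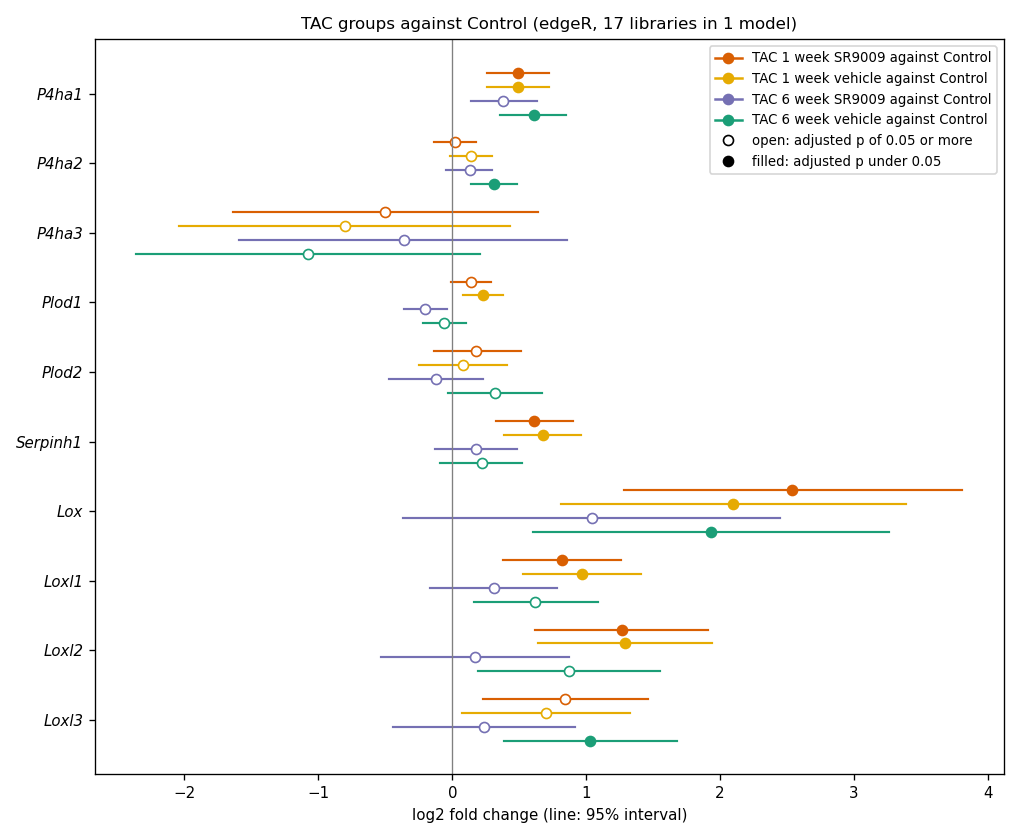
Log2 fold change of each gene in each TAC group against Control (points) with its 95% interval (lines), filled where edgeR's adjusted p was under 0.05. Lox lies farthest to the right in all 4 groups, with 2.54 in TAC 1 week SR9009, 2.10 in TAC 1 week vehicle, 1.04 in TAC 6 week SR9009 and 1.93 in TAC 6 week vehicle.

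P4ha1 (ENSMUSG00000019916.9, mm10 chromosome 10, 59323296 to 59373304, plus strand) encodes the main catalytic subunit of collagen prolyl 4-hydroxylase, which pairs with protein disulfide isomerase (P4hb). Its level was 109.2, 136.5, 111.4 and 104.7 CPM in TAC 1 week SR9009, 103.1, 105.9, 130.0 and 121.7 in TAC 1 week vehicle, 117.9, 88.9 and 114.7 in TAC 6 week SR9009 and 118.6, 122.1 and 134.9 in TAC 6 week vehicle, against 78.5, 81.5 and 86.6 in Control. Every TAC library lay above every Control library. The share of all genes with such a separation from Control was not counted, for P4ha1 or for the genes below. The log2 fold change over Control was 0.49 ± 0.11 (SE) in TAC 1 week SR9009 (edgeR adjusted p 0.00607), 0.49 ± 0.11 in TAC 1 week vehicle (0.00815) and 0.61 ± 0.11 in TAC 6 week vehicle (0.0016). In TAC 6 week SR9009 it was 0.38 ± 0.12 with an adjusted p of 0.0675, and without TAC 6 week SR9009 2 it was 0.50 ± 0.11 with an adjusted p of 0.0186.

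P4ha2 (ENSMUSG00000018906.9, chromosome 11, 54100095 to 54131665, plus strand), the second catalytic subunit, best known from cartilage and bone, varied little between groups. It averaged 53.8 ± 1.69 CPM in TAC 1 week SR9009 (SD, n = 4), 58.5 ± 3.32 in TAC 1 week vehicle (n = 4), 58.1 ± 2.79 in TAC 6 week SR9009 and 65.9 ± 8.43 in TAC 6 week vehicle, against 53.2 ± 3.19 in Control (n = 3 each). Only TAC 6 week vehicle passed the test, with a log2 fold change of 0.31 ± 0.08 (edgeR adjusted p 0.0125), and its 60.6, 61.4 and 75.6 CPM stood above the 50.4, 56.7 and 52.6 CPM of Control. That call was lost without TAC 6 week vehicle 3 (adjusted p 0.0816) or Control 1 (0.0637). The ratio of P4ha1 to P4ha2 per kb was 3.26 (2.94 to 4.03) in TAC 1 week SR9009, 3.0 (2.68 to 3.59) in TAC 1 week vehicle, 2.79 (2.42 to 3.02) in TAC 6 week SR9009 and 2.9 (2.71 to 3.02) in TAC 6 week vehicle, against 2.35 (2.18 to 2.5) in Control, as means and ranges. By the authors' FPKM the order was reversed, with P4ha1 below P4ha2 in each group mean (18.4 and 44.0 in Control). Which gene had more RNA therefore depends on the measure.

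P4ha3 (ENSMUSG00000051048.11, chromosome 7, 100285520 to 100319699, plus strand) encodes the third subunit and was close to the limit of counting, with 2 to 19 fragments per library. It had 0.366, 1.36, 0.466 and 0.231 CPM in TAC 1 week SR9009 and 0.450, 0.867 and 0.766 in TAC 6 week SR9009. In vehicle hearts it had 0.230, 0.572, 0.541 and 0.627 CPM at 1 week and 0.220, 0.634 and 0.407 at 6 weeks, against 1.14, 0.299 and 1.24 CPM in Control. The groups overlapped, Control 2 lay apart from the other Control libraries, and no comparison passed (edgeR adjusted p from 0.23 upward against Control). With the 3 libraries that stood apart all left out it was called lower than Control in TAC 1 week SR9009 (log2 fold change -1.73 ± 0.45, adjusted p 0.0202) and in TAC 1 week vehicle (-1.23 ± 0.41, 0.0447), on these few fragments. That fit left out the lowest Control value (0.299 CPM) and the highest TAC 1 week SR9009 value (1.36 CPM), so it is no test of its own.

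Plod1 (ENSMUSG00000019055.10, chromosome 4, 147909753 to 147936767, minus strand), the lysyl hydroxylase that acts mainly on the helical part of collagen, had its higher values at 1 week. It had 153.3, 160.1, 127.4 and 137.9 CPM in TAC 1 week SR9009 and 145.8, 146.8, 152.8 and 167.9 in TAC 1 week vehicle. At 6 weeks it had 111.4, 113.3 and 118.1 CPM with SR9009 and 124.8, 130.3 and 122.3 with vehicle, against 132.3, 127.3 and 133.1 in Control. The TAC 1 week vehicle libraries all lay above Control, and both 6-week groups lay below both 1-week groups apart from an overlap between TAC 6 week vehicle and TAC 1 week SR9009. Plod1 rose in TAC 1 week vehicle by 0.23 ± 0.07 on the log2 scale (edgeR adjusted p 0.0394), a call that was lost without Control 1, 2 or 3 or TAC 1 week vehicle 3 or 4 (0.0806 to 0.136). In TAC 1 week SR9009 the value was 0.14 ± 0.07 (0.162), and it passed at 0.19 ± 0.06 (0.0423) without replicate 3 of that group.

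Plod2 (ENSMUSG00000032374.9, chromosome 9, 92542223 to 92608428, plus strand) hydroxylates the telopeptide lysines from which the stable pyridinoline cross-links of scars form. It had 63.1, 83.3, 60.1 and 54.9 CPM in TAC 1 week SR9009, 54.3, 53.7, 67.5 and 68.0 in TAC 1 week vehicle, 51.7, 51.3 and 56.1 in TAC 6 week SR9009 and 51.1, 78.3 and 86.5 in TAC 6 week vehicle, against 58.2, 55.9 and 59.0 in Control. The TAC 6 week vehicle libraries were split, with replicates 2 and 3 above every Control library and replicate 1 below all of them. No comparison with Control passed, and in TAC 6 week vehicle the log2 fold change was 0.32 ± 0.16 (edgeR adjusted p 0.181). Without TAC 6 week vehicle 1 it was 0.52 ± 0.14 (adjusted p 0.0115), so 1 library decided that call. In TAC 6 week vehicle 1 the activated fibroblast markers summed to 530.9 CPM, against 1220 and 984.2 in the other replicates. The part of these markers in the Plod2 values was not tested.

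Serpinh1 (ENSMUSG00000070436.6, chromosome 7, 99345376 to 99353239, minus strand), the collagen chaperone HSP47, was the most abundant of the 10 and rose early. It had 379.8, 477.3, 317.7 and 290.5 CPM in TAC 1 week SR9009, 360.0, 324.6, 421.2 and 424.5 in TAC 1 week vehicle, 299.2, 244.1 and 269.5 in TAC 6 week SR9009 and 295.1, 276.7 and 263.6 in TAC 6 week vehicle, against 238.8, 253.3 and 226.8 in Control. Every 1-week library and every TAC 6 week vehicle library stood above Control, and TAC 6 week SR9009 overlapped with it. The log2 fold change over Control was 0.61 ± 0.14 in TAC 1 week SR9009 (edgeR adjusted p 0.00607) and 0.68 ± 0.14 in TAC 1 week vehicle (0.00451). At 6 weeks it was 0.18 ± 0.14 with SR9009 (0.559) and 0.22 ± 0.14 with vehicle (0.31). Of 14 general chaperones of the endoplasmic reticulum tested, 3 were lower and 0 higher in TAC 1 week vehicle than in Control, where 5.91% of all genes were called lower. These were Hspa5 (BiP), with a log2 fold change of -0.43 ± 0.07 (0.0018), Canx with -0.32 ± 0.06 (0.00189) and Hyou1 with -0.32 ± 0.06 (0.00195).

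Lox (ENSMUSG00000024529.8, chromosome 18, 52516067 to 52529867, minus strand), the founding lysyl oxidase, had the largest fold change. It had 25.4, 95.2, 22.1 and 15.8 CPM in TAC 1 week SR9009, 28.7, 12.5, 31.0 and 43.7 in TAC 1 week vehicle, 16.6, 12.7 and 12.8 in TAC 6 week SR9009 and 13.8, 36.3 and 28.0 in TAC 6 week vehicle, against 6.75, 5.29 and 8.48 in Control. All 14 TAC libraries stood above all Control libraries, a separation whose share over all genes was not counted. Within the TAC groups the spread was wide. The log2 fold change was 2.54 ± 0.60 in TAC 1 week SR9009 (edgeR adjusted p 0.00825), 2.10 ± 0.61 in TAC 1 week vehicle (0.0292), 1.04 ± 0.67 in TAC 6 week SR9009 (0.438) and 1.93 ± 0.63 in TAC 6 week vehicle (0.0388). Both vehicle calls depended on single libraries. At 1 week the call was lost without Control 1, 2 or 3 or TAC 1 week vehicle 3 or 4 (0.0589 to 0.102), and at 6 weeks without Control 1, 2 or 3 or TAC 6 week vehicle 2 or 3 (0.0798 to 0.139). The TAC 1 week SR9009 call held with any 1 of its 7 libraries left out but was lost with the library total as a covariate (1.94 ± 0.72, 0.164), and the group mean was 39.6 ± 37.3 CPM with replicate 2 and 21.1 ± 4.85 without it.

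Loxl1 (ENSMUSG00000032334.9, chromosome 9, 58287738 to 58313186, minus strand), the family member known for elastic fibres, had 51.4, 66.5, 38.9 and 33.1 CPM in TAC 1 week SR9009, 52.2, 37.5, 57.9 and 62.1 in TAC 1 week vehicle, 34.7, 31.1 and 33.9 in TAC 6 week SR9009 and 33.3, 49.6 and 41.4 in TAC 6 week vehicle, against 28.9, 24.6 and 27.2 in Control. All 14 TAC libraries stood above Control here too. It rose in TAC 1 week SR9009 by 0.82 ± 0.21 on the log2 scale (edgeR adjusted p 0.0121) and in TAC 1 week vehicle by 0.97 ± 0.21 (0.00674). The SR9009 call was lost without Control 2 (0.0526). At 6 weeks the log2 fold change was 0.31 with SR9009 (0.504) and 0.62 ± 0.22 with vehicle (0.0537), and without TAC 6 week vehicle 1 the vehicle value was 0.76 ± 0.23 (0.0244).

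Loxl2 (ENSMUSG00000034205.11, chromosome 14, 69609068 to 69695834, plus strand), known for collagen IV and for a role in heart fibrosis, had 68.5, 115.5, 46.6 and 43.7 CPM in TAC 1 week SR9009 and 68.8, 42.4, 73.0 and 94.5 in TAC 1 week vehicle. At 6 weeks it had 32.3, 33.8 and 30.4 CPM with SR9009 and 40.6, 68.7 and 47.7 with vehicle, against 29.4, 30.3 and 26.0 in Control. Its TAC 6 week SR9009 libraries lay within 4 CPM of each other and just above Control, while the other 3 TAC groups spread upward. The log2 fold change was 1.27 ± 0.31 in TAC 1 week SR9009 (edgeR adjusted p 0.00927), 1.29 ± 0.31 in TAC 1 week vehicle (0.0114), 0.17 in TAC 6 week SR9009 (0.84) and 0.87 ± 0.32 in TAC 6 week vehicle (0.0641). Without Control 3 the TAC 1 week vehicle call was lost (0.054), and without TAC 6 week vehicle 1 the TAC 6 week vehicle value passed at 1.02 ± 0.35 (0.0398).

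Loxl3 (ENSMUSG00000000693.5, chromosome 6, 83034173 to 83052562, plus strand), a further lysyl oxidase, was low throughout. It had 14.1, 28.2, 11.3 and 10.6 CPM in TAC 1 week SR9009 and 14.1, 10.8, 13.4 and 19.6 in TAC 1 week vehicle. At 6 weeks it had 11.5, 9.10 and 11.1 CPM with SR9009 and 14.8, 20.2 and 20.2 with vehicle, against 9.56, 7.88 and 9.51 in Control. Only TAC 6 week vehicle passed, by 1.03 ± 0.30 on the log2 scale (edgeR adjusted p 0.0236), and the call was lost without Control 1, 2 or 3 or TAC 6 week vehicle 2 or 3 (0.0594 to 0.0798). In TAC 1 week SR9009 the log2 fold change was 0.84 ± 0.29 (0.0505), and it passed without replicate 3 (0.97 ± 0.29, 0.027) or replicate 4 (0.99 ± 0.28, 0.0191) of that group. Loxl3 shares 535 exon bases with Htra2 on the opposite strand, which had 220.8 fragments on average, and the kit does not mark strand, so its counts are uncertain.

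The second question was how the genes changed between 1 and 6 weeks of pressure overload. In vehicle hearts Plod1 and Serpinh1 were lower at 6 weeks than at 1 week and none of the 10 was higher, where 5.9% of all genes were called lower. Plod1 averaged 125.8 ± 4.08 CPM at 6 weeks and 153.3 ± 10.2 at 1 week, a log2 fold change of -0.29 ± 0.07 (edgeR adjusted p 0.0144), and the groups did not overlap. Serpinh1 averaged 278.5 ± 15.9 CPM at 6 weeks and 382.6 ± 48.7 at 1 week, a log2 fold change of -0.46 ± 0.13 (0.0345). The Plod1 call was lost without TAC 6 week vehicle 3 (0.0785), and that of Serpinh1 without TAC 6 week vehicle 2 or 3 or TAC 1 week vehicle 1, 3 or 4 (0.0533 to 0.143). With the library total as a covariate neither passed (Plod1 0.115, Serpinh1 0.162). In that fit 0.534% of all genes were called in either direction, beside 12.1% in the reported one. The TAC 6 week vehicle libraries (13.35 to 15.81 M fragments) were all deeper than those of TAC 1 week vehicle (8.683 to 12.575 M). Depth and group therefore cannot be told apart between these times. Plod2 was called higher at 6 weeks without TAC 6 week vehicle 1 (0.43 ± 0.13, 0.0296), beside 0.24 with it. Between the same libraries dividing-cell markers fell (6 of 6 lower at 6 weeks, median log2 fold change -2.17), as did 3 of 4 mesothelium markers (-2.58), and their part was not tested.

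In SR9009 hearts Loxl2 and Plod1 were lower at 6 weeks than at 1 week and none was higher, where 5.67% of all genes were called lower. Loxl2 averaged 32.2 ± 1.71 CPM at 6 weeks and 68.6 ± 33.2 at 1 week, a log2 fold change of -1.10 ± 0.30 (edgeR adjusted p 0.0318). Plod1 averaged 114.3 ± 3.46 CPM at 6 weeks and 144.6 ± 14.8 at 1 week, a log2 fold change of -0.34 ± 0.07 (0.00868). For Lox the value was -1.51 ± 0.54 (0.0845) and for Serpinh1 -0.44 ± 0.13 (0.0522). The Loxl2 call rested on several libraries: it was lost without TAC 1 week SR9009 1 or 2 or without any of the TAC 6 week SR9009 libraries (0.0617 to 0.105), and with the library total as a covariate (0.067). Without TAC 1 week SR9009 4, in turn, Lox (-1.76 ± 0.51, 0.0316), Loxl1 (-0.64 ± 0.19, 0.0337) and Serpinh1 (-0.52 ± 0.13, 0.0133) were also called lower at 6 weeks, and Serpinh1 passed without TAC 1 week SR9009 3 as well (0.0328). In the SR9009 libraries, too, dividing-cell markers were lower at 6 weeks (6 of 6, median log2 fold change -2.85), with macrophage markers (8 of 8, -0.6), mesothelium markers (3 of 4, -1.66) and activated fibroblast markers (3 of 6, -1.27). Their part was not tested.

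**Figure D3:**
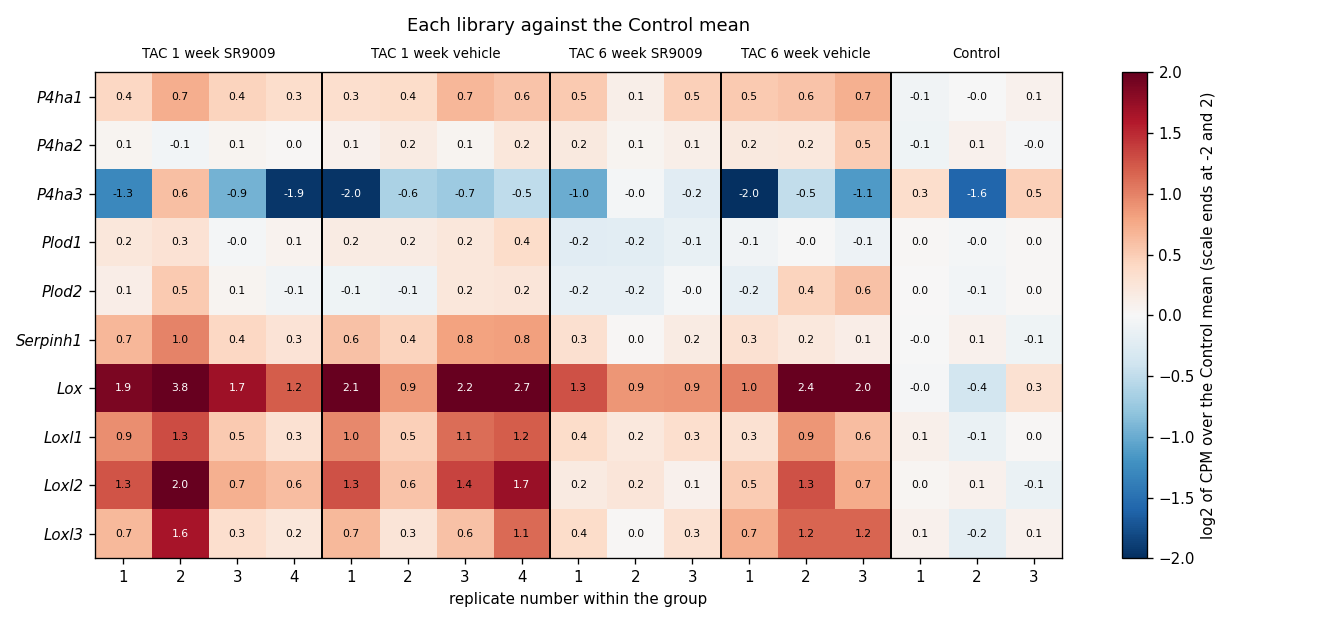
Log2 of each library's CPM over the Control mean (colour and printed value; the colour scale ends at -2 and 2) for the 10 genes (rows) and 17 libraries (columns, by group). Lox, Loxl1, Loxl2 and P4ha1 are above every Control library in all 14 TAC libraries, and TAC 1 week SR9009 2 is the highest of its group for 9 of the 10 genes. How many of all genes lie above Control in this way was not counted, so this describes the 10 genes only.

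Within groups the genes tended to share the order of libraries. In TAC 1 week SR9009 replicate 2 was highest for 9 genes, and Lox, Loxl1, Loxl2, Loxl3, Plod2 and Serpinh1 had the same order over all 4 libraries. P4ha2 was the exception, with its lowest value in that library. In TAC 1 week vehicle replicate 4 was highest for 9 genes, and in TAC 6 week vehicle replicate 1 was lowest for 8. In TAC 1 week SR9009 2 the activated fibroblast markers summed to 2407 CPM, against 464.4 to 965.8 in the other replicates, the red blood cell markers to 1661 CPM against 336.0 to 490.9, and the cardiomyocyte markers to 33845 CPM against 40716 to 47527. The part of these in the members' values was not tested.

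The third question was whether SR9009 changed these genes in the loaded heart. At 1 week after TAC none of the 10 genes passed the test of SR9009 against vehicle, with edgeR adjusted p from 0.813 to 1.0 and none under 0.05 unadjusted. Of all genes, 0% were called in either direction, with 1019 at an unadjusted p under 0.05. The log2 fold changes ran from -0.15 (Loxl1) to 0.44 (Lox). Serpinh1 averaged 366.4 ± 82.9 CPM with SR9009 and 382.6 ± 48.7 with vehicle (SD, n = 4 each), a log2 fold change of -0.06 with a 95% interval of -0.32 to 0.20. P4ha1 averaged 115.4 ± 14.3 CPM with SR9009 and 115.2 ± 12.9 with vehicle, an interval of -0.21 to 0.21. For Lox the interval was wide, -0.52 to 1.41.

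At 6 weeks after TAC again none of the 10 passed, where 0.169% of all genes were called in either direction. The log2 fold change of SR9009 over vehicle was negative for 9 of 10 genes, with a median of -0.26 beside 0.0 over all genes, and 4 genes had an unadjusted p under 0.05, as did 2500 of all 15931 genes. Loxl3 averaged 10.6 ± 1.29 CPM with SR9009 and 18.4 ± 3.1 with vehicle (SD, n = 3 each), a log2 fold change of -0.79 with a 95% interval of -1.41 to -0.17 (edgeR adjusted p 0.206). Loxl2 averaged 32.2 ± 1.71 CPM with SR9009 and 52.3 ± 14.7 with vehicle, -0.70 with an interval of -1.37 to -0.03 (0.296). The SR9009 and vehicle libraries of Loxl2, Loxl3, P4ha1 and Plod1 did not overlap, 4 of the 10 genes, and over all genes tested 19.8% did not overlap. Lox averaged 14.0 ± 2.21 CPM with SR9009 and 26.1 ± 11.4 with vehicle (-0.89, interval -2.09 to 0.31), while Serpinh1 was 270.9 ± 27.6 CPM with SR9009 and 278.5 ± 15.9 with vehicle (-0.04, -0.34 to 0.26).

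Plod2 turned on a single library at 6 weeks. It averaged 53.1 ± 2.69 CPM with SR9009 and 72.0 ± 18.5 with vehicle, a log2 fold change of -0.44 ± 0.16 (edgeR adjusted p 0.207). Without TAC 6 week vehicle 1 the value was -0.63 ± 0.14 (0.00758), in a fit that called 9.2% of all genes. That fit held 2 vehicle libraries at 6 weeks. Without TAC 6 week vehicle 2 or 3 none of the 10 passed (lowest edgeR adjusted p 0.474 and 0.525). With the library total as a covariate none passed either (lowest 0.756), and 0% of all genes were called. In depth the vehicle libraries (13.35 to 15.81 M fragments) hardly overlapped those with SR9009 (9.908 to 13.646 M). Depth and group are therefore hard to tell apart here too. With all 3 libraries that stood apart left out, Plod2 (-0.64 ± 0.10, 0.000266), Loxl3 (-0.93 ± 0.18, 0.0021), Lox (-1.20 ± 0.31, 0.0166) and Loxl2 (-0.86 ± 0.24, 0.0261) were called lower with SR9009, where 13.5% of all genes were called in either direction. These libraries were picked after an earlier look at these data, and TAC 6 week vehicle 1 was the lowest of its group for 8 of the 10 genes. Fits without it are therefore no test of a drug effect. The SR9009 and vehicle groups at 6 weeks differed in the sums of several marker lists. Activated fibroblast markers stood at 334.3 to 422.1 CPM in TAC 6 week SR9009 and 530.9 to 1220 in TAC 6 week vehicle. Macrophage markers stood at 320.7 to 365.6 CPM in TAC 6 week SR9009 and 400.2 to 484.0 in TAC 6 week vehicle, and dividing-cell markers at 26.5 to 48.1 with SR9009 and 52.2 to 88.8 with vehicle. The list labelled skeletal muscle holds 5 genes, Acta1 and Ckm among them, of which 2 passed the filter. Its sum stood at 2745 to 3211 CPM in TAC 6 week SR9009 and 4287 to 6303 in TAC 6 week vehicle. Whether any of this sum came from skeletal muscle was not tested. No marker of these lists was called between the groups, and the part of these sums was not tested.

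The test of whether the SR9009 effect differed between times called none of the 10, where 0.119% of all genes were called in either direction. The difference of effects, 6 weeks minus 1 week, ran from -1.33 (Lox) to 0.41 (P4ha3) on the log2 scale. It was -0.93 ± 0.39 for Loxl3 (edgeR adjusted p 0.299) and -0.54 ± 0.22 for Plod2 (0.282), the 2 of the 10 with an unadjusted p under 0.05, where 2265 of all 15931 genes had one. Without TAC 6 week vehicle 1 the Plod2 value was -0.74 ± 0.17 (0.0194), in a fit that called 5.93% of all genes. Without TAC 6 week vehicle 2 or 3 none of the 10 passed (lowest adjusted p 0.514 and 0.527).

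**Figure D4:**
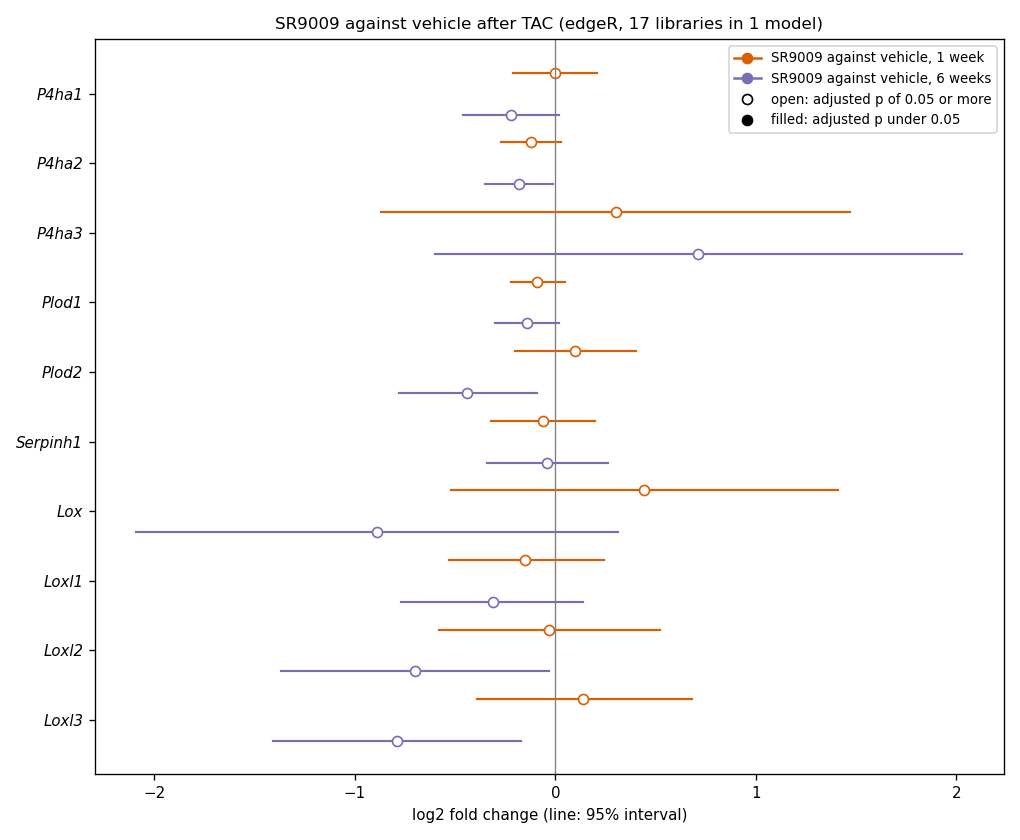
Log2 fold change of SR9009 over vehicle (points) with its 95% interval (lines) for each gene at 1 week and at 6 weeks after TAC, all open because no adjusted p was under 0.05. The 1-week points lie between -0.15 and 0.44, and the 6-week points of 9 genes lie below 0.

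The fibrillar collagen chains on which these enzymes act rose at 1 week too. Of 6 tested fibrillar chains 5 were higher than Control in TAC 1 week SR9009 and 5 in TAC 1 week vehicle, 0 in TAC 6 week SR9009 and 1 (Col5a2, 1.31 ± 0.35, edgeR adjusted p 0.0141) in TAC 6 week vehicle. Col3a1 rose by 1.73 ± 0.30 (0.00177) in TAC 1 week SR9009 and by 1.69 ± 0.30 (0.00242) in TAC 1 week vehicle, beside 0.61 in TAC 1 week SR9009 and 0.68 in TAC 1 week vehicle for Serpinh1. The summed level of Col1a1, Col1a2 and Col3a1 averaged 2267 CPM in TAC 1 week SR9009, 2206 in TAC 1 week vehicle, 803.1 in TAC 6 week SR9009 and 1168 in TAC 6 week vehicle, against 730.1 in Control. Between times, 5 of the 6 chains were lower at 6 weeks with SR9009 and 3 with vehicle.

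Set against those 3 collagen chains, the classes parted. Serpinh1 stood at 18.0 CPM per 100 CPM of the chains in TAC 1 week SR9009 (11.7 to 21.2), 18.2 in TAC 1 week vehicle (15.1 to 24.2), 33.7 in TAC 6 week SR9009 (30.3 to 36.8) and 24.2 in TAC 6 week vehicle (20.5 to 28.1), against 32.8 in Control (31.8 to 34.0). Plod1 and Plod2 together stood at 10.7 in TAC 1 week SR9009, 10.3 in TAC 1 week vehicle, 20.8 in TAC 6 week SR9009 and 17.1 in TAC 6 week vehicle, against 25.8 in Control, and no TAC library reached the Control range of 24.6 to 27.0. The 3 P4ha genes stood at 8.75 in TAC 1 week SR9009, 8.45 in TAC 1 week vehicle, 20.7 in TAC 6 week SR9009 and 16.6 in TAC 6 week vehicle, against 18.7 in Control. The 4 lysyl oxidases kept the narrowest range against the chains, with 7.6 in TAC 1 week SR9009 (7.38 to 7.94), 7.52 in TAC 1 week vehicle (6.98 to 7.82), 11.2 in TAC 6 week SR9009 and 11.7 in TAC 6 week vehicle, against 9.77 in Control (9.15 to 10.2). These ratios are descriptions and carry no test.

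**Figure D5:**
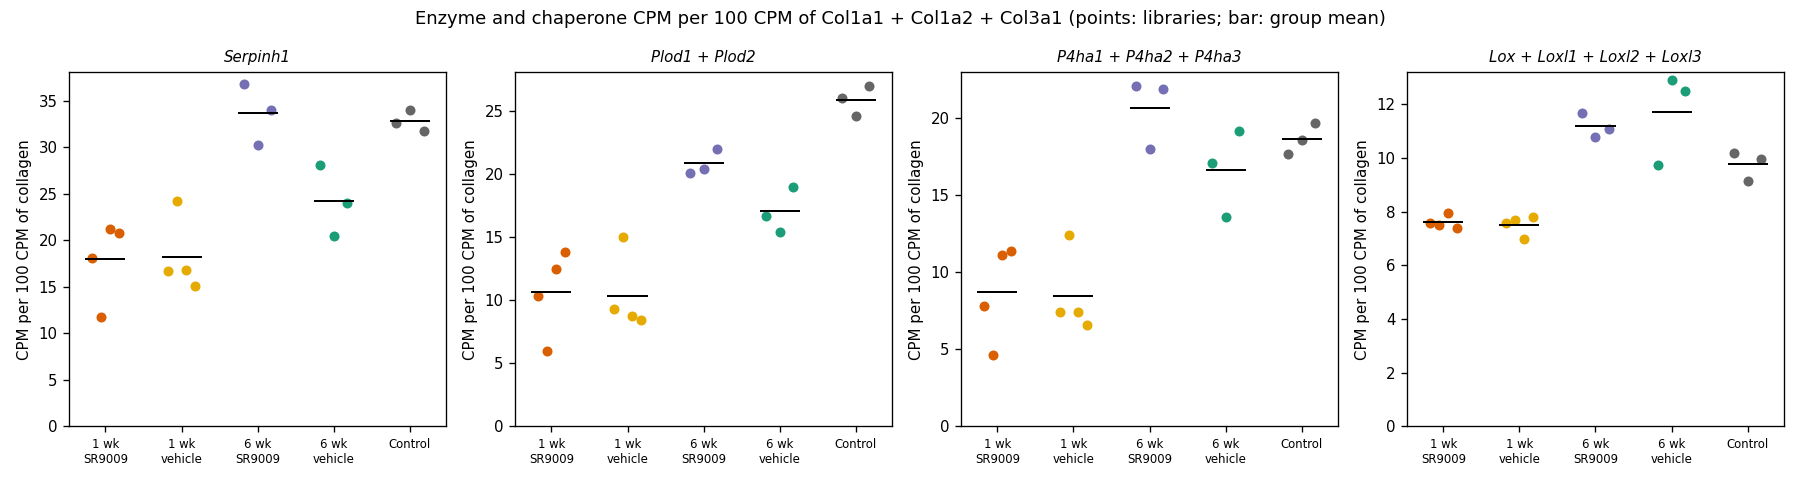
Summed CPM of Serpinh1, of Plod1 and Plod2, of the 3 P4ha genes and of the 4 lysyl oxidases per 100 CPM of Col1a1, Col1a2 and Col3a1 (vertical axes, from 0), in each library (points) with group means (bars). At 1 week all 4 ratios lie below Control in every library, and at 6 weeks those of the lysyl oxidases lie at 9.75 or above.

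Of 26 other genes of collagen modification tested, 8 were higher and 0 lower than Control in TAC 1 week SR9009, 6 and 0 in TAC 1 week vehicle, 0 and 0 in TAC 6 week SR9009, and 5 and 1 in TAC 6 week vehicle. In TAC 1 week vehicle the smallest p belonged to Sparc, a collagen-binding matrix protein (1.26 ± 0.23, edgeR adjusted p 0.00248), Adamts2, which cuts the N-propeptide (1.26 ± 0.23, 0.00283), and Pcolce, which speeds C-propeptide removal (0.79 ± 0.18, 0.00827). In TAC 6 week vehicle they were Pcolce2 (0.76 ± 0.13, 0.000665) and the prolyl 3-hydroxylase P3h2 (0.77 ± 0.18, 0.0075), both higher, and P3h4, lower (-0.64 ± 0.14, 0.00495). The nearest relatives of the members did not pass against Control: Plod3, which also attaches glucose to hydroxylysine, had a log2 fold change of 0.36 in TAC 1 week SR9009 (0.06) and 0.37 in TAC 1 week vehicle (0.0691). Loxl4 had 0.37 in TAC 1 week SR9009 (0.444) and 0.44 in TAC 1 week vehicle (0.382). P4hb, the partner of the P4ha subunits, had 0.30 in TAC 1 week SR9009 (0.0513) and 0.24 in TAC 1 week vehicle (0.135). Between times, 7 of the 26 were lower at 6 weeks with SR9009, with Sparc at -1.18 ± 0.23 (0.00582), and with vehicle 2 were higher and 2 lower, with Adamts14 at -1.38 ± 0.27 (0.00329).

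The elastic fibre genes, whose elastin and fibrillins are worked on or bound by lysyl oxidases, gave 8 higher and 2 lower of 15 in TAC 1 week SR9009, 9 and 1 in TAC 1 week vehicle, 0 and 1 in TAC 6 week SR9009 and 6 and 1 in TAC 6 week vehicle. Eln rose in TAC 1 week vehicle by 1.53 ± 0.26 (edgeR adjusted p 0.00175), and Efemp1 fell in TAC 6 week vehicle by 1.79 on the log2 scale (5.73e-05). Of 15 basement membrane and other collagen chains, 13 were higher in TAC 1 week SR9009, 14 in TAC 1 week vehicle, 0 in TAC 6 week SR9009 and 7 in TAC 6 week vehicle, and none was lower. In this list was the one gene of all these lists called between SR9009 and vehicle, Col4a3, which had 18.0 ± 0.828 CPM in TAC 6 week SR9009 and 30.4 ± 4.66 in TAC 6 week vehicle (-0.76 ± 0.12, 0.0209). Of 16 hypoxia-responsive genes, 2 were higher and 1 lower in TAC 1 week SR9009, 2 and 2 in TAC 1 week vehicle, 1 and 0 in TAC 6 week SR9009 and 5 and 0 in TAC 6 week vehicle, Vegfa among the higher in all 4 (0.45 ± 0.08 in TAC 6 week vehicle, 0.000659). Of 11 genes of 2-oxoglutarate, iron and ascorbate supply, 3 were higher and 1 lower in TAC 1 week SR9009, 4 were higher in TAC 6 week vehicle (Tfrc by 1.28 ± 0.37, 0.0207), and none passed in the other 2 groups.

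For each of the 8 genes called against Control, the tested genes with the most similar profile were found by the root mean square difference of centred log2 CPM over the 17 libraries. Serpinh1 lay nearest to Actb (0.065), Cfl1 (0.092) and Cnn2 (0.102), and Loxl2 to Sparc (0.14), Col1a2 (0.144) and Vim (0.154). Lox lay nearest to Adamts8 (0.302), Col8a1 (0.314) and Lrp8 (0.325), at distances that reflect its own SD of 1.003 over the libraries. Loxl1 lay nearest to Dpysl3 (0.1), Loxl3 to Enpp1 (0.146), Plod1 to Gnai2 (0.064), P4ha1 to 2010111I01Rik (0.087) and P4ha2 to Mrgbp (0.072). A small distance can reflect a gene that varied little, as the SDs over the libraries show. They were 0.62 for Loxl2, 0.475 for Loxl3, 0.419 for Loxl1 and 0.308 for Serpinh1. For P4ha1 the SD was 0.237, for Plod1 0.168 and for P4ha2 0.132. These are descriptions of likeness over libraries that share groups and depth.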

How the data were processed

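Whole-heart RNA was measured in 17 libraries, made with a TruSeq kit from 1 ug of total RNA per the labels' protocols. The authors deposited a table per library in the layout of Cuffdiff read groups, per the file headers, and the submitters' processing notes name the mm10 build. The sources used here give no aligner, counter or annotation. Raw fragments are estimated counts, not normalized by the authors, with 2289 to 2678 values per library that are not whole. The deposited scaled fragments, a signal equal to the raw fragments times a factor per library, were not used. The authors' FPKM served only as an alternative description of levels.

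Symbols, coordinates and exon lengths came from a GENCODE annotation of mm10, which held 40252 of the IDs. A total of 78 genes that the authors' tool left uncounted (status HIDATA) were removed. Estimated counts were rounded and fitted with edgeR 4.0.16 (R 4.3.3), TMM scaling and filterByExpr, in 1 model of 17 libraries with a mean per group, which left 15931 genes. The common dispersion was 0.0106, with 12 residual degrees of freedom. Tests are two-sided, with an adjusted p under 0.05 over all genes of a comparison as the threshold. CPM use TMM library sizes, and intervals are 95% and cover the spread between libraries.

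The script was tested on simulated counts. Alternatives were DESeq2 1.42.0, its size factors, no filter, other sample sets, library total as a covariate, a replicate block and each library left out in turn. The members, the gene lists and the motifs were chosen with earlier results of these data known. All 10 members are named, and of each list up to 3 genes with the smallest p per comparison. Plod3, Loxl4, P4hb and the activated fibroblast marker Postn were named besides.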

Additional observations from a re-analysis of the deposited data

Results flagged for a closer look

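Lox in TAC 1 week SR9009 2 stood far from the other libraries of its group, with 95.2 CPM beside 15.8, 22.1 and 25.4 CPM, and its gap to the nearest took 0.88 of the group's range. Of 20 such groups of 4 libraries (10 genes in the 2 groups large enough) it was the 1 that stood out, and chance alone gives about 1 in 20. The same library was also the highest of its group for Loxl1, Loxl2, Loxl3, Plod1, Plod2, P4ha1, P4ha3 and Serpinh1. How many of all genes were highest there was not counted.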

How the results depend on the processing

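Of 1298 fold changes of the 10 genes under the alternatives, 1194 kept their call, 58 lost it and 46 gained it, none with a call changed its sign, and 53 with no call did (reported values of at most 0.44 in size). Against Control, leaving out 1 library gave 3 to 6 genes called in TAC 1 week vehicle (6 reported), 1 to 7 in TAC 6 week vehicle (4 reported), 4 to 7 in TAC 1 week SR9009 (5 reported) and 0 to 1 in TAC 6 week SR9009 (0 reported). The share of all genes called there moved too, with 6.28% to 19.6%, 11.7% to 25.2%, 9.79% to 22.6% and 1.43% to 3.78%. Leaving out 1 library gave 0 to 3 between times with vehicle, 1 to 5 with SR9009 (2 reported in each), and 0 to 1 for SR9009 against vehicle at 6 weeks and for the difference of that effect between times (0 reported in each). Of all genes, 4.66% to 16.3%, 2.76% to 12.8%, 0.0124% to 9.2% and 0.00618% to 5.93% were called there. P4ha1 was called against Control in each of these fits at 1 week and in TAC 6 week vehicle.

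With the library total as a covariate, 0 genes were called in TAC 6 week vehicle against Control, 0 in TAC 1 week SR9009 against Control, 0 between times with vehicle and 1 with SR9009. All TAC 1 week SR9009 and TAC 6 week vehicle libraries were deeper than Control. All TAC 6 week vehicle libraries (13.35 to 15.81 M) were also deeper than those of TAC 1 week vehicle (8.683 to 12.575 M). Depth and group cannot be told apart in these comparisons. TAC 1 week vehicle kept its 6 against Control. Its totals (8.683 to 12.575 M) lay on both sides of the Control range (9.678 to 10.14 M), with none inside it. Without TAC 1 week SR9009 2, TAC 6 week vehicle 1 and Control 2 together, 7 genes were called in TAC 6 week vehicle against Control, 4 between times with vehicle, 1 with SR9009, 4 for SR9009 against vehicle at 6 weeks and 1 (Plod2) for the difference of effects. Of all genes, 26.3%, 20.9%, 6.84%, 13.5% and 6.61% were called in these comparisons, in that order. The reported fit called 20.7%, 12.1%, 8.95%, 0.169% and 0.119%. The 3 libraries were picked after an earlier look at these data, so the fit without them is no test of its own. With only the groups compared in the fit, 4 were called in TAC 6 week SR9009 against Control (Lox, Loxl1, P4ha1 and, lower, Plod1) and 0 between times with SR9009. These fits called 14.3% and 2.91% of all genes, beside 4.37% and 8.95% as reported. With no filter on low counts 1 and 4 members were called (2.21% and 5.18% of all genes). With DESeq2 1 was called in TAC 6 week SR9009 against Control (5.49% of all genes), P4ha1 in both. The cause of these changes was not tested.

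The replicate numbers did not pair the libraries: of 31 pairs with the same number 1 had a correlation of deviations over 0.1 (median 0.018, range -0.445 to 0.264). A fit with the replicate block called 4 genes in TAC 1 week vehicle and 3 in TAC 6 week vehicle against Control (10.2% and 17.8% of all genes). Between times it called 1 with vehicle (9.48%) and 1 with SR9009 (4.91%). The authors' FPKM moved against CPM by library: relative to Control, the median ratio over the 10 genes was 3.62 in TAC 1 week SR9009 2, 2.44 in TAC 1 week vehicle 2 and 0.698 to 1.39 in the others, so levels and folds here rest on CPM. P4ha3, at 2 to 19 fragments per library, is limited by depth.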
